A study of Mus musculus with 48 samples.

Results

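Sox4, Basp1, Aqp5, Col8a1, App, Fabp5, Igfbp7, Arl6ip1 and Cd81 are 9 of the 24054 genes in a table of RNA-seq counts from mouse breast tumour lines and tumour leukocytes. They were chosen from these counts because their levels in the cultured lines PyMT-M and E0771 were both at or below 3% of the median of the other 6 lines. Their low values in that pair are therefore a description here and carry no test. At the minimum level used below, 30 genes met that rule, and it does not say how these 9 were taken from them. Levels are given as CPM, counts scaled to a common total of all counts outside the ribosomal RNA precursor Rn45s, as mean ± SD of 3 libraries.

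The study profiled 48 libraries in 16 groups of 3. T11, 2208L, 67NR and 4T1 are labelled BALB/C, whereas C57BL/6 is the strain given for AT3, E0771, PyMT-N and PyMT-M. RNA was taken at passage 7 for PyMT-M, 14 for PyMT-N and E0771, 15 for AT3, 19 for 67NR, and 15 to 20 for T11, 2208L and 4T1. E0771 was grown in RPMI with HEPES and every other line in high-glucose DMEM, so medium and line cannot be told apart for E0771. Neutrophils (CD45+ CD11b+ Ly6G+ Ly6C med-low) and macrophages (CD45+ CD11b+ Ly6G- Ly6C- F4/80+) were sorted, as DAPI- cells, from T11, 2208L, E0771 and AT3 tumours. E0771 neutrophil 1 and macrophage 1 carry the label BALB/C and the other E0771 libraries C57BL/6, and all were kept in their groups. The labels do not say that replicates were separate cultures or animals, so p-values rest on the spread between libraries, part or all of it possibly technical.

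The products of the 9 genes work in different parts of the cell. Sox4 is a transcription factor of the SOX family with an HMG-box DNA-binding domain. Cd81 is a tetraspanin, a membrane protein that gathers partner proteins such as integrins into clusters; App is the membrane-spanning amyloid precursor protein, which secretases cut; Aqp5 is a water channel of secretory epithelia; and Basp1 is a lipid-anchored protein at the inner face of the plasma membrane. Arl6ip1 helps to shape the tubules of the endoplasmic reticulum, Fabp5 carries fatty acids in the cytoplasm, Col8a1 is a chain of the short-chain collagen VIII, and Igfbp7 is a secreted protein of the insulin-like growth factor binding family. Aqp5 is typical of glandular epithelium, whereas Cd81 and App are made by many cell types, macrophages among them.

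Line libraries held between 1893268 and 5749088 counts apart from Rn45s, those of neutrophils 470712 to 1185233, and those of macrophages 683150 to 1755895. A single count is thus worth 0.174 to 0.528 CPM in lines, up to 2.12 CPM in neutrophils and up to 1.46 in macrophages. The share of Rn45s was 3.88% to 14.9% in lines but 26.8% to 76.2% in sorted cells. The lines held 7.40 to 34.8 CPM of Ptprc and Itgam, which encode CD45 and CD11b, against 544 to 2461 in neutrophils and 863 to 3568 in macrophages. Macrophage markers (Emr1, Csf1r, C1qa, C1qb, Mrc1 and Cd68) summed to 5497 CPM or more in each macrophage library and to at most 3563 in each neutrophil library. The 6 neutrophil markers summed to at most 359 CPM in 2208L, AT3 and E0771 macrophages, but to 3154 to 7929 in T11 macrophages, where 5975 ± 2550 CPM came from Mmp9 and 1.42 ± 0.586 from S100a8.

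The genes lie on 6 chromosomes, 3, 5, 7, 13, 15 and 16, and members on the same chromosome are at least 24.9 Mb apart. In mm10 with GENCODE M21, all are protein-coding: Fabp5 lies at chr3:10012548-10016607 and Igfbp7 at chr5:77349240-77408041. On chromosome 7 Arl6ip1 spans chr7:118118891-118129662 and Cd81 chr7:143052739-143067934, and Sox4 is at chr13:28948919-28953713. On chromosome 15 are Basp1 at chr15:25363277-25413764 and Aqp5 at chr15:99590782-99594829, and on chromosome 16 Col8a1 at chr16:57624258-57754737 and App at chr16:84949685-85173766. Fabp5, Aqp5 and Cd81 are read from the plus strand and the other 6 from the minus strand.

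RefSeq promoters of 300 bases (GRCm38.p6) were found for 8 of the 9 genes, not for Fabp5. CG pairs, the sites of DNA methylation, numbered 12 to 46 in these windows, against a median of 7 over 32851 promoters. By a ratio of observed to expected CG of at least 0.6 and a GC content of at least 50%, 7 of 8 were CpG-rich (all but Col8a1), against 33.5% of all promoters. Genes with a median of at least 50 CPM in the other 6 lines, the level the members were drawn from, had CpG-rich promoters in 82.2% of 3233 cases, so the members' share is near that background. The stretches from 220 to 61 bases before the start are shown for 4 genes of unlike function, 5′ to 3′ on the gene's strand with CG pairs in capitals. Basp1 is at chr15:25413825-25413984 (minus strand), App at chr16:85173768-85173927 (minus), Arl6ip1 at chr7:118129686-118129845 (minus) and Cd81 at chr7:143052530-143052689 (plus).
Basp1: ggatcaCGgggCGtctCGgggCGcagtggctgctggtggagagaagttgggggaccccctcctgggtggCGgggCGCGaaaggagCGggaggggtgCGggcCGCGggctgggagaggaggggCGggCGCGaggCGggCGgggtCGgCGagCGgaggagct
App: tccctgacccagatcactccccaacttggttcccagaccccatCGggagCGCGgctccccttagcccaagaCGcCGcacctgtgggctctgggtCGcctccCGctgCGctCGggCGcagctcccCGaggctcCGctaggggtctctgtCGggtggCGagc
Arl6ip1: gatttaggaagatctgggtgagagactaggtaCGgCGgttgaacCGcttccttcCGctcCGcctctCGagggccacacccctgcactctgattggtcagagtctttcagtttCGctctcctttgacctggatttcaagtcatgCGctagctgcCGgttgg
Cd81: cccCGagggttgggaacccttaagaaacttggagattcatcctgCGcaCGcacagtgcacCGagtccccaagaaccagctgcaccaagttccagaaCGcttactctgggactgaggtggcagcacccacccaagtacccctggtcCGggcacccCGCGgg
Basp1 holds 19 CG pairs in this stretch, App 14, Arl6ip1 9 and Cd81 8. Searched on both strands of the whole 300 bases, the SP1 box GGGCGG was present in 6 of 8 promoters (Basp1, Aqp5, Col8a1, App, Igfbp7 and Cd81), against 35.7% of all promoters and 72.4% of those of genes at the members' level. The AP-1 site TGANTCA was in none of the 8 (7.81% of all promoters). The TEAD motif GGAATG was in Sox4 alone (14.7%) and the TATA box TATAAA in Cd81 alone (13.6%). The SP1 box itself holds a CG pair, so the 2 counts overlap, and neither binding nor methylation was measured.

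In PyMT-M and E0771 each of the 9 genes was read by a handful of counts, 5 to 60 summed over the 3 libraries of a line. Sox4 gave 0.298, 1.50 and 0 CPM in the PyMT-M libraries and 0.948, 0.982 and 0 in E0771, against 17.99 ± 2.62 to 179 ± 17.4 CPM in the other lines. Sox4 thus reached 1.09% and 1.17% of the other lines' median of 54.9 CPM, and every library of the other 6 lines lay above the pair. In order, AT3 was followed by T11 at 49.5 ± 11.7 and 67NR at 50.02 ± 4.20, whose libraries overlapped, then by 2208L at 59.9 ± 1.47, 4T1 at 113 ± 5.80 and PyMT-N.

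Cd81 gave 0.298, 1.12 and 0.364 CPM in PyMT-M and 0.948, 1.57 and 2.02 in E0771. Those levels are 0.665% and 1.69% of a median of 89.4 CPM. Unlike the others, Cd81 was highest in AT3, at 191 ± 9.01 CPM, and lowest outside the pair in 67NR, at 9.17 ± 1.84. T11 (56.8 ± 1.88), PyMT-N (77.2 ± 6.65), 4T1 (102 ± 6.48) and 2208L (104 ± 10.6) lay between, and libraries of 4T1 and 2208L overlapped.

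App gave 3.87, 2.25 and 6.91 CPM in PyMT-M and 6.01, 3.34 and 5.80 in E0771, which is 2.03% and 2.36% of a median of 214 CPM and the closest of the 9 to the threshold. The AT3 libraries, at 11.2, 14.1 and 7.65 CPM, lay just above the pair, and AT3 stood at 5.12% of the median. The other lines ran from 155 ± 7.68 in T11 through 67NR, 4T1 and PyMT-N to 752 ± 30.9 in 2208L, with no overlap between neighbours in that order.

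Aqp5 divided the lines otherwise. AT3 held 1.24, 1.57 and 1.23 CPM, within the range of PyMT-M (1.49, 1.87 and 0.728) and just below that of E0771 (2.53, 1.77 and 2.02). So for Aqp5 AT3 belonged with the low pair, at 1.17% of the median of 115 CPM against 1.18% and 1.83%. 4T1 was low as well at 8.37 ± 1.92, while 2208L held 91.04 ± 2.00, T11 139 ± 9.20, PyMT-N 154 ± 8.33 and 67NR 192 ± 2.24.

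Basp1 was read at 1.79, 0.375 and 0.728 CPM in PyMT-M and 0.632, 1.18 and 0.504 in E0771, or 0.998% and 0.800% of a median of 96.5 CPM. AT3 came next at 7.69 ± 1.32, then T11 at 34.3 ± 4.48, and the other 4 lines held 87.8 to 142 CPM. Arl6ip1 kept the most of the 9 per kilobase of exon in the pair. It gave 4.17, 3.00 and 4.73 CPM in PyMT-M and 6.64, 4.32 and 4.29 in E0771, against 58.5 ± 4.48 in AT3 and 138 ± 6.61 to 312 ± 1.13 in the other lines.

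Both secreted proteins were near 1% of the median. Igfbp7 gave 1.79, 1.12 and 0.364 CPM in PyMT-M and 0.632, 1.37 and 1.26 in E0771, or 0.819% and 0.817% of 133 CPM. T11 (5.18 ± 3.02) and AT3 (8.06 ± 0.537) overlapped and were low too, while 4T1, 67NR, PyMT-N and 2208L held 108 to 191 CPM. Col8a1 gave 2.98, 1.87 and 5.09 CPM in PyMT-M and 5.37, 1.37 and 4.29 in E0771, against 50.3 ± 2.37 in AT3, 78.7 ± 6.96 in T11 and up to 591 ± 17.5 in 2208L. Fabp5, the fatty acid carrier, gave 0.893, 0.749 and 1.46 CPM in PyMT-M and 1.58, 1.18 and 1.26 in E0771. AT3 and 67NR held 18.5 ± 1.13 and 18.6 ± 0.899 CPM and overlapped, and 2208L was highest at 179 ± 24.7.

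**Figure D1:**
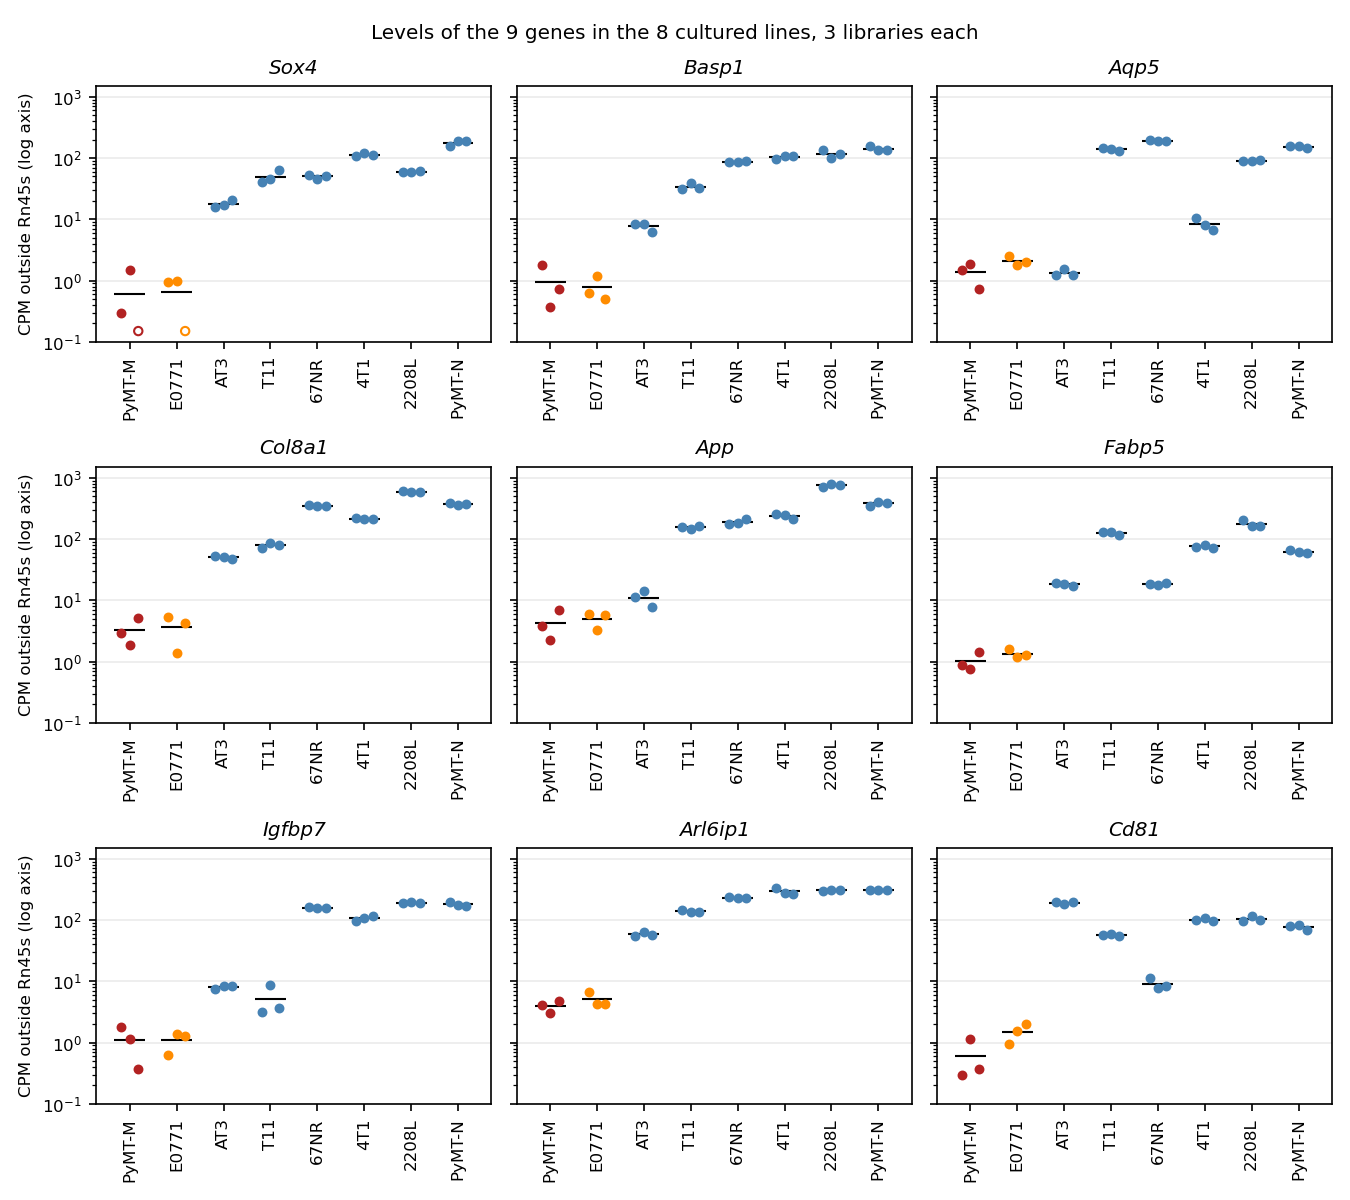
Level of each of the 9 genes (CPM outside Rn45s, log axis) in the 3 libraries of each cultured line; horizontal bars are means and hollow circles libraries with no count, drawn at the foot of the panel. PyMT-M (red) and E0771 (orange) lie below every library of the other 6 lines (blue) for 8 genes, and for Aqp5 AT3 lies with them.

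Whether these genes were absent or only low was set against 1433 olfactory and vomeronasal receptor genes, taken here as background. These receptor genes were read at 0.137 to 0.485 CPM per kb in the lines, and that they are silent was assumed, not tested. Per kb of exon, the 18 levels of the 9 genes in PyMT-M and E0771 were 0.520 to 7.93 times that background, and none reached 10 times. Sox4 was at 0.553 and 0.520 times background, Cd81 at 0.916 and 2.03, App at 1.48 and 1.50, and Arl6ip1, the highest, at 7.08 and 7.93. In PyMT-N the same genes stood 128 (Fabp5) to 1092 (Igfbp7) times above it. AT3 App (2.25 times) and Aqp5 (1.38 times) were as near to background as the pair. The counts in the pair are therefore low values, not exact zeros. Arl6ip1 and Igfbp7 (4.00 times in PyMT-M and 3.49 in E0771) stood several times above background, and the other genes at 0.520 to 3.14 times. Expression below 10 times background, a chosen cut, was not distinguished from it. Exon lengths join all annotated exons of a gene, so levels per kb depend on that annotation.

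Of 4121 genes with a median of at least 50 CPM in the other 6 lines, 30 met the rule (0.728%). The larger of the 2 shares ran from 0.819% (Igfbp7) to 2.36% (App) among the members. Just above the threshold were Eno1b at 3.18%, Lad1 at 3.21%, Marcks at 3.56%, Flot2 at 4.10%, Has2 at 4.14% and Tmem132a at 4.20%. AT3 was the lowest of the other lines for 7 of the 9 genes and at or below 10% of the median for 4 of them, Basp1, App, Aqp5 and Igfbp7. The deposited column names mark 2208L, 4T1, PyMT-N and AT3 as Epi, and T11, 67NR, PyMT-M and E0771 as Mes. The sum of Epcam, Cdh1, Krt7, Krt8 and Krt18 was 80.3 CPM in AT3 and 79.6 in PyMT-M, against 2736 to 4031 in the other 3 Epi lines, so AT3 goes against its suffix in these markers. Fibroblast markers summed to 1648 CPM in AT3, 530 in PyMT-M, 320 in E0771 and 862 in T11. Their part in the levels of the 9 genes was not tested.

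E0771 and PyMT-M were also set against each other. The rule held both lines under the same low ceiling, which leaves little room for a difference, so the counts here are a description. In the pair, Sox4, Basp1, Aqp5, Fabp5, Igfbp7 and Cd81 gave at most 9 counts a library, under the filter's minimum count of 10. Those genes entered the test through their counts in the other lines. By the edgeR quasi-likelihood test, 0 of 9 members differed at an adjusted p below 0.05, where 6.63% of all genes tested were called. None had an unadjusted p below 0.05 by edgeR, where 3356 of 18183 genes did. DESeq2 called none of the 9 either, where it called 1109 of 11132 genes. Cd81 came nearest, higher in E0771 by 1.28 ± 0.65 on the log2 scale (SE; unadjusted p = 0.0507, adjusted p = 0.273 by edgeR). The libraries of the lines overlapped for all 9 genes, and the share of all genes that overlap was not counted. With so few counts, SEs ran from 0.31 (Arl6ip1) to 0.84 (Sox4) log2, and a difference of that size was not detectable at this depth.

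Outside the pair the 9 genes did not form 1 block. All 9 differed among the other 6 lines by edgeR, at adjusted p from 1.42e-62 (Aqp5) to 1.93e-44 (Arl6ip1), but 87.1% of all genes tested did so. PyMT-N held the highest level of Sox4, Basp1 and Arl6ip1, 2208L that of Col8a1, App, Fabp5 and Igfbp7, 67NR that of Aqp5 and AT3 that of Cd81. Over the means of these 6 lines, Pearson's r between members ran from -0.67 (Aqp5 and Cd81) to 0.997 (Basp1 and Arl6ip1), with a median of 0.63 over 36 pairs. These are descriptions over 6 points that share their libraries.

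Within BALB/C, 2208L and 4T1 (suffix Epi) were compared with T11 and 67NR (suffix Mes), lines that took the role of comparison lines in the rule but not of the low pair. By edgeR all 9 genes passed, 8 higher and 1 lower in 2208L and 4T1, where 42.4% of all genes passed (20.0% higher and 22.4% lower). Igfbp7 was higher by 2.24 ± 0.11 log2 (SE; adjusted p = 9.15e-34 by edgeR) and Cd81 by 2.12 ± 0.09 (adjusted p = 9.54e-36). Aqp5 was lower by 2.63 ± 0.09 log2, a coded difference of -2.63 (adjusted p = 1.09e-43 by edgeR). The remaining rises were 1.26 for App, 1.23 for Fabp5, 1.05 for Col8a1, 0.97 for Basp1, 0.70 for Sox4 and 0.69 for Arl6ip1. The libraries of the groups overlapped for Sox4, Col8a1, Fabp5 and Igfbp7. How often they overlapped over all genes was not counted. The difference between 2208L and T11 was not that between 4T1 and 67NR: an interaction term added after values were seen passed for all 9 genes by edgeR, where 47.0% of all genes passed, and was positive for 6 (26.2% of all genes) and negative for 3 (20.8%). For Igfbp7, 67NR, at 158 ± 3.97 CPM, exceeded 4T1 at 108 ± 10.1, while T11 at 5.18 was far below 2208L at 191 ± 4.26. Col8a1 was likewise higher in 67NR (350 ± 4.35 CPM) than in 4T1 (212 ± 4.51), and far lower in T11 (78.7) than in 2208L (591).

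The expressed genes nearest each member, some of them megabases away, were largely present in PyMT-M and E0771. Among the 3 nearest genes on each side with a median of at least 5 CPM, 54 in all, none met the rule. They stood at a median of 87.6% of the other lines in PyMT-M and 90.8% in E0771. Their distance from the member had a median of 368 kb and reached 12623 kb. On the lower-coordinate side of Basp1 they were 12428 to 12623 kb away, and on the higher-coordinate side of Igfbp7 8604 to 9114 kb. Closer genes with a lower median were left out. Rps15a and Smg1, which flank Arl6ip1 at 2.70 and 1.65 kb, stood at 177% and 156% in PyMT-M and 155% and 177% in E0771. Polr2b, whose annotation overlaps that of Igfbp7, stood at 98.7% and 110%, and since strand is not given, reads in the overlap cannot be assigned to one of them. The lowest neighbour was Tssc4, 1.31 kb beyond Cd81, at 7.79% and 9.34% of a median of 21.9 CPM. Trpm5, 1.22 kb from Cd81 on the same side, stood at 78.3% and 83.4% of a median of 5.34 CPM.

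**Figure D2:**
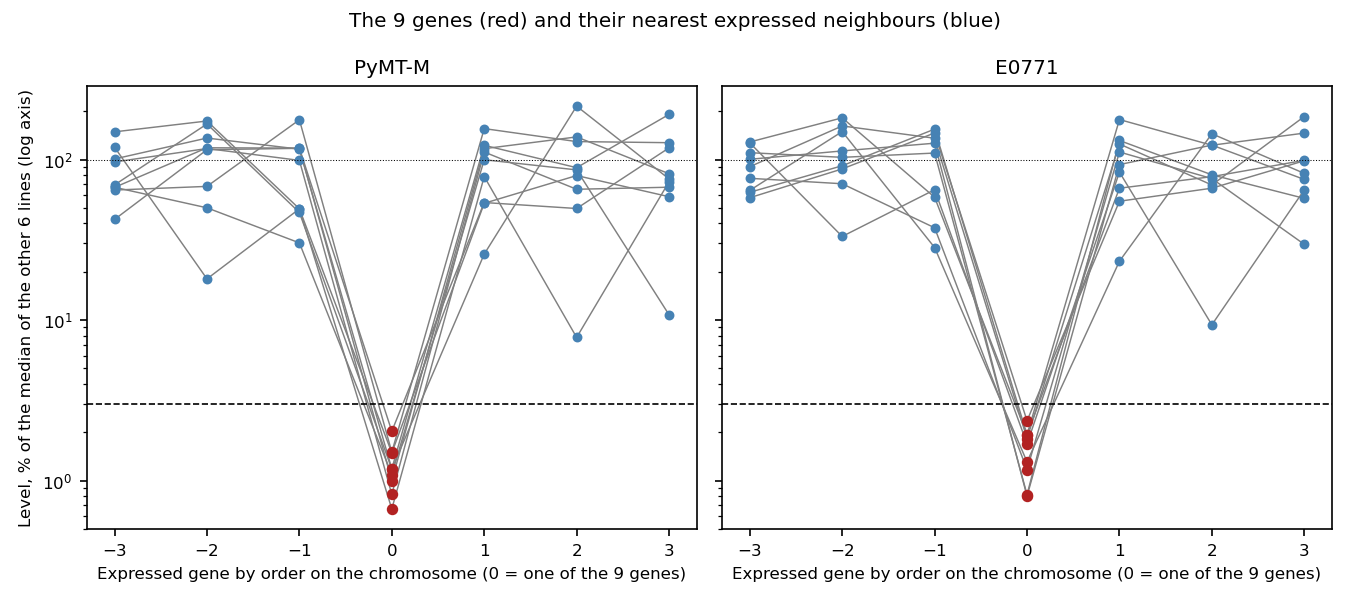
Level of the 9 genes (red, position 0) and of the 3 nearest expressed genes on either side (blue) in PyMT-M (left) and E0771 (right), as a percentage of the median of the other 6 lines on a log axis; grey lines join genes around 1 member, the dashed line is 3% and the dotted line 100%. The neighbours lie between 7.79% and 215% in PyMT-M and between 9.34% and 185% in E0771, all above the dashed line. They are drawn by order, not by distance, and lie up to 12623 kb from their member.

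Relatives of the 9 genes, from lists of family members and partners, were tested between PyMT-M with E0771 and the other 6 lines. Of 96 listed, 91 could be tested by edgeR, and 38 were lower, 25 higher and 28 not called, where 56.5% of all genes were called, 26.1% lower and 30.3% higher. Their median difference was -0.28 log2, against -0.03 over all genes tested. None met the 3% rule. Marcks, which like Basp1 binds the inner membrane face, came nearest: it was lower by 5.05 ± 0.16 log2, a coded difference of -5.05 (adjusted p = 4.79e-48 by edgeR), at 1.80 CPM in PyMT-M and 1.35 in E0771 against a median of 50.6. Its paralog Marcksl1 was higher, by 1.02, but at 63.2 and 54.9 CPM the pair was near the median of 56.7. Marcksl1 was lowest in 67NR, at 0.910 CPM.

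The tetraspanins and partners gave 9 lower and 6 higher of 22 tested. Itga3, an integrin that binds tetraspanins, was at 67.04 CPM in PyMT-M and 71.3 in E0771 against a median of 409, a difference of -2.56 ± 0.07 log2 (adjusted p = 1.42e-51 by edgeR). Cd9, a tetraspanin that shares partners with Cd81, was higher by 0.87 and Itga6 by 0.97, and Tspan15 differed by -1.38. In the App list 9 were lower and 6 higher of 16: Aplp2, the closest App paralog, was higher by 1.18 ± 0.05, at 703 and 735 CPM against a median of 357, and Adam17, an App-cleaving protease, by 0.42. Apbb2, an App adaptor, and the sorting receptor Sorl1 differed by -1.41 and -0.96.

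The counts in the remaining lists were as follows. Among 12 Sox genes 4 were lower and 3 higher, with Sox9 higher by 0.65. Sox9 was at 66.2 and 42.6 CPM in the pair, around its median of 53.5, and lowest in AT3 at 3.56. Of 7 aquaporins tested, Aqp1 was higher by 2.26 ± 0.09, at 33.1 and 79.0 CPM against 9.55, and Aqp8 and 1 more were lower (Aqp8 by a coded -0.94). Aqp8 was at 2.64 and 4.51 CPM in the pair against a median of 5.24, and at 80.7 in PyMT-N. Of 6 IGF binding proteins, Igfbp6 was higher by 3.58 ± 0.11, at 54.3 and 57.2 CPM against 2.79, Igfbp4 was higher by 0.78 and 1 was lower. The ER-shaping list gave 6 lower and 6 higher of 16, among them Arl6 (-0.65), Reep5 (-0.52), Atl2 (0.65) and Reep4 (0.51). Of 7 fatty acid and retinoid binding proteins 4 were lower and none higher (Crabp1 by a coded -1.94), and of collagen VIII and X chains 1 of 2 was lower.

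**Figure D3:**
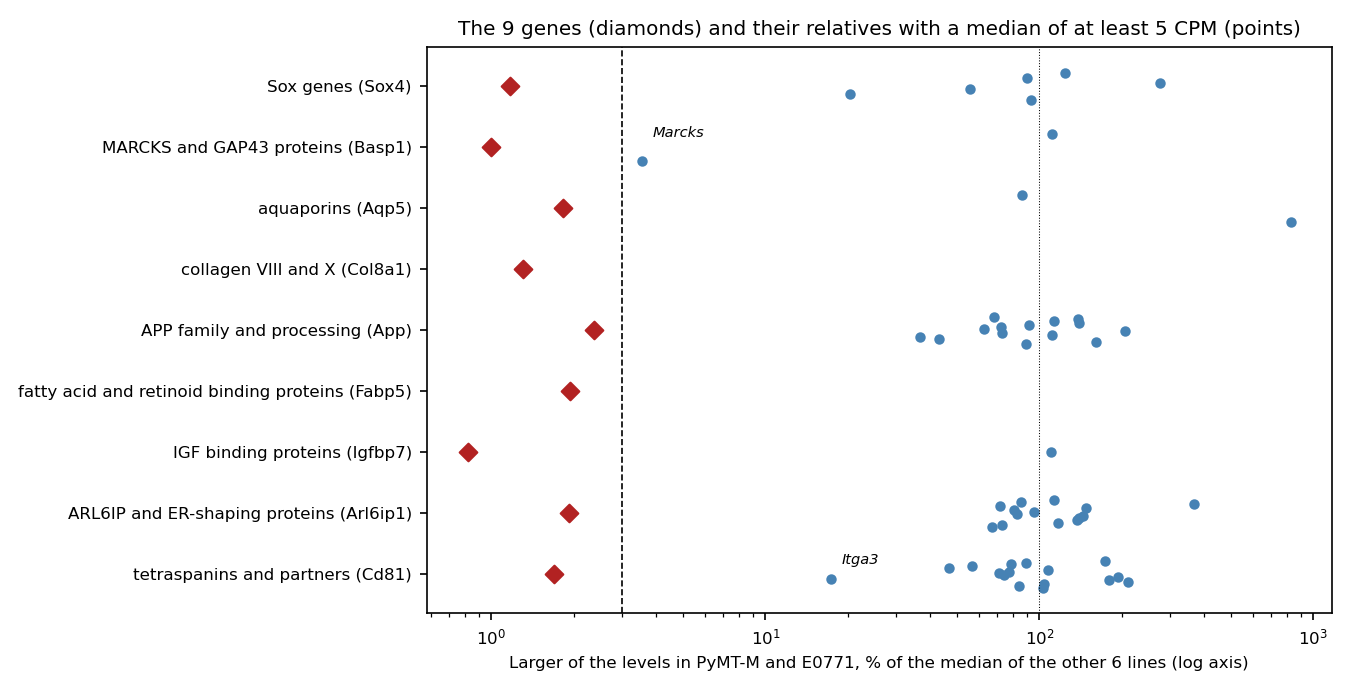
Larger of the levels in PyMT-M and E0771, as a percentage of the median of the other 6 lines on a log axis, for each of the 9 genes (red diamonds) and for the relatives in its list with a median of at least 5 CPM (blue points, 1 per gene). The dashed line is 3% and the dotted line 100%; Marcks at 3.56% and Itga3 at 17.4% are the relatives nearest the members.

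The genes most like the 9 in pattern were found by Pearson's r over the 8 line means between log2(CPM + 1) and the members' mean profile, among 8381 genes. Ankrd1 (r = 0.995), Nckap1 (0.990), Irx2 (0.988), Chst2 (0.985), Scamp1 (0.982) and Usp53 (0.982) came first, all 8 points being shared lines. The points include PyMT-M and E0771, whose low values chose the members, so r follows the rule in part and is a description. Ankrd1, at 5.71 CPM in PyMT-M and 6.13 in E0771 against 41.8 in AT3 and up to 365 in 2208L, and Irx2 had larger shares of 2.49% and 2.52%, inside the rule. Nckap1 followed the order of the lines with a smaller range, at 172 and 189 CPM in the pair, or up to 41.6% of the median. Among the members r with that profile was lowest for Cd81 (0.77) and Aqp5 (0.80).

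In host cells the same genes were read outside the tumour lines. In macrophages Cd81 gave 94.9, 71.8 and 122 CPM in T11 tumours, 421, 343 and 253 in 2208L, 414, 476 and 486 in AT3, and 128, 108 and 87.1 in E0771. In neutrophils Cd81 gave 29.1, 22.4 and 41.3 CPM in T11, 182, 160 and 168 in 2208L, 112, 120 and 44.3 in AT3, and 31.4, 31.4 and 33.99 in E0771. Within each tumour every macrophage library lay above every neutrophil library for Cd81. In such bulk samples, fewer cells of a type and less RNA per cell cannot be told apart.

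Of the 9 genes 8 could be tested between macrophages and neutrophils by edgeR, Igfbp7 being too low, and 4 were higher and 2 lower in macrophages, where 76.7% of all genes passed (30.2% higher and 46.5% lower). The median of all genes tested was -0.47 log2, and -0.74 with RLE size factors, so differences are relative to that. Cd81 was higher by 2.32 ± 0.17 (adjusted p = 1.99e-16 by edgeR), Arl6ip1 by 1.84 ± 0.16 (3.47e-14), App by 1.74 ± 0.16 (2.57e-13) and Fabp5 by 0.99 ± 0.17 (2.12e-06). Col8a1 differed by -1.22 ± 0.25 (adjusted p = 3.23e-05) and Aqp5 by -1.74 ± 0.49 (0.00156), and Aqp5 no longer passed without the T11 tumours (-0.74, adjusted p = 0.217), a setting chosen after seeing the data. Basp1 (0.21 ± 0.17, adjusted p = 0.248) and Sox4 (0.04 ± 0.42, adjusted p = 0.935) did not pass. These differences carry TMM factors and the CPM do not: mean CPM of Basp1 was 98.4 in macrophages and 142 in neutrophils, the opposite order to its fitted difference. Fabp5 CPM was higher in macrophages in 2208L and E0771 only, at 20.1 against 25.98 in T11 and 32.3 against 48.3 in AT3.

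The receptor genes, the measure of background, were higher in neutrophils (0.982 to 2.88 CPM per kb by tumour) than in macrophages (0.211 to 0.550). Sox4, Aqp5, Col8a1 and Igfbp7 stayed under 10 times background in all 4 neutrophil groups, and Sox4 and Col8a1 in all 4 macrophage groups too. App, Fabp5 and Cd81 reached 10 times background in 2 of 4 neutrophil groups each, and Basp1 and Arl6ip1 in 3. The part of this background in the lower values of Col8a1 and Aqp5 in macrophages was not tested. Cd81, App, Arl6ip1, Fabp5 and Basp1 were over 10 times background in all 4 macrophage groups, and Basp1 reached 221 ± 11.8 CPM in 2208L neutrophils and 216 ± 86.4 in AT3 neutrophils.

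**Figure D4:**
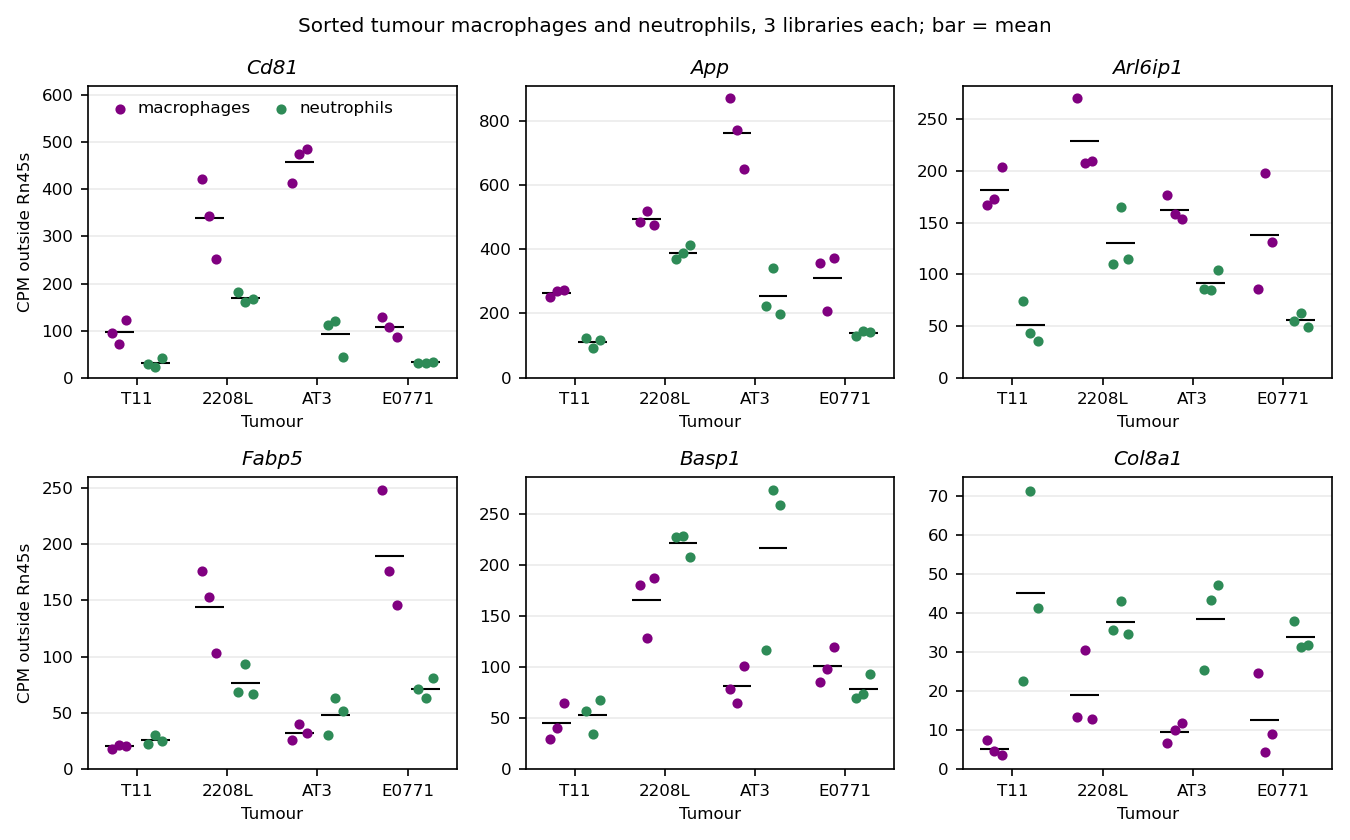
Levels of 6 of the genes (CPM outside Rn45s, linear axes from 0) in macrophages (purple) and neutrophils (green) sorted from T11, 2208L, AT3 and E0771 tumours; points are libraries, 3 per group, and bars are means. Cd81 is higher in macrophages in each tumour, and Fabp5 reaches 190 CPM in E0771 macrophages against 20.1 in T11.

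Between tumours, 6 of 8 genes differed in macrophages by edgeR (Basp1, Aqp5, App, Fabp5, Arl6ip1 and Cd81), where 37.1% of all genes did. Arl6ip1 was the weakest of them, with an adjusted p of 0.0485 that rose to 0.0619 with RLE size factors, 0.0678 with a replicate block and up to 0.225 when E0771 macrophage 1 was left out. T11 and 2208L are BALB/C, and AT3 and E0771 C57BL/6, so differences between tumours can also be differences of strain. In neutrophils 5 of 7 differed (Basp1, App, Fabp5, Arl6ip1 and Cd81), where 33.4% of all genes did. Macrophage markers in the neutrophil sorts summed to 847 CPM in T11, 1076 in E0771, 2038 in AT3 and 3285 in 2208L. Mean CPM of Basp1, App, Arl6ip1 and Cd81 in neutrophils rose through the tumours in that order, and that of Fabp5 did not. The part of macrophage RNA in these neutrophil levels was not tested. In both cell types T11 held the lowest mean of Cd81, App, Fabp5 and Basp1.

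The cultured E0771 line hardly read these genes, but macrophages sorted from E0771 tumours read Cd81, App, Arl6ip1, Fabp5 and Basp1, and sorted E0771 cells were compared with the mean of the other 3 tumours. In macrophages 4 of 8 passed by edgeR, 1 higher and 3 lower in E0771, where 23.6% of all genes passed (13.2% higher and 10.4% lower). Fabp5 gave 248, 176 and 146 CPM in E0771, against 17.9, 21.6 and 20.8 in T11, 25.5, 39.7 and 31.9 in AT3 and 176, 153 and 103 in 2208L. It was higher in E0771 by 1.76 ± 0.22 log2 (adjusted p = 8.36e-07 by edgeR), though 2208L overlapped it. Cd81 differed by -1.48 ± 0.23 (adjusted p = 2.45e-05), and T11 macrophages, at 96.3 ± 25.2 CPM, overlapped E0771 at 108 ± 20.4.

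App in E0771 macrophages (357, 206 and 371 CPM) differed from the mean of the other tumours by -0.83 ± 0.20 (adjusted p = 0.00397 by edgeR). Without E0771 macrophage 2 the difference was -0.62 (adjusted p = 0.0510 by edgeR). Mean App was higher in 2208L (493 CPM) and AT3 (763) macrophages, but lower in T11 (264), whose libraries overlapped those of E0771. Arl6ip1 (85.8, 198 and 132 CPM) differed by -0.73 ± 0.22 (adjusted p = 0.0186 by edgeR), though AT3 libraries overlapped those of E0771. It no longer passed by edgeR against AT3 alone (-0.67, adjusted p = 0.0723) or without E0771 macrophage 1, the library labelled BALB/C (-0.50, adjusted p = 0.134). Basp1, at 101 ± 17.3 CPM in E0771, Aqp5, Col8a1 and Sox4 did not pass.

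In neutrophils 1 of 7 passed, Cd81, which was lower, where 2.18% of all genes passed and 0.674% were lower. It was at 32.2 ± 1.51 CPM in E0771, as low as T11 at 30.9 ± 9.55 and below AT3 and 2208L, a difference of -1.42 ± 0.31 (adjusted p = 0.00866 by edgeR). Cd81 stood at 7.27 times background in E0771 neutrophils and 3.73 times in T11, under the cut of 10. In AT3 it stood at 16.5 times and in 2208L at 60.2. The call was lost when E0771 neutrophil 1, 2 or 3 was left out (adjusted p = 0.0949, 0.105 and 0.0686), with differences of -1.39, -1.45 and -1.46. Without AT3 neutrophil 1, Basp1 (-1.09, adjusted p = 0.00353), App (-0.91, adjusted p = 0.0194) and Arl6ip1 (-0.81, adjusted p = 0.0377) passed as well. The difference between the E0771 effect in macrophages and in neutrophils passed for 0 of 8 genes by edgeR (2.55% of all genes), with 2 at an unadjusted p below 0.05 and 1, Fabp5, called by DESeq2. Over all genes, 3729 of 19056 had an unadjusted p below 0.05 by edgeR, and DESeq2 called 961 of 17947. Fabp5 had the smallest adjusted p, 0.0922 for a difference of 1.12 ± 0.38, and passed with RLE size factors (0.0415) and DESeq2 (0.0328).

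Markers of other cells differed between these sorts. In 2208L the 5 epithelial markers summed to 392 ± 94.6 CPM in macrophages and 504 ± 47.7 in neutrophils, against at most 123 and 161 as means of the other tumours, with no marker at 0. In E0771 macrophages the 5 endothelial markers summed to 349 ± 23.1 CPM, against 71.9 to 189 in the other tumours, and the 6 fibroblast markers to 319 ± 52.2 against 92.3 to 254. The 4 T and NK cell markers summed to 59.4 ± 5.71 CPM in E0771 and 67.8 ± 21.04 in 2208L macrophages, against 9.22 in T11 and 7.15 in AT3, and the 3 B cell markers to 35.8 ± 15.2 and 62.1 ± 60.4 against 9.06 and 7.54. Fabp5 in macrophages divided the tumours in the same way, at 190 and 144 CPM against 20.1 and 32.3. Sox4, at 12.4 ± 1.91 CPM in 2208L macrophages, and Aqp5, at 16.2 ± 2.61, were likewise highest in that tumour. The part of these markers in the values of the 9 genes was not tested.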

How the data were processed

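The authors deposited 1 table of raw read counts covering 24054 genes by symbol. Per the submitters' processing notes, bcl2fastq 2.17, STAR 2.4.2a and mm10 were used, and the counting program, annotation and strand setting are not given in the sources used here. Reads of overlapping genes, and of near-identical copies such as those of Fabp5 or Arl6ip1, therefore cannot be separated. The table's PyMTE columns were taken as PyMT-N, the line left once all other columns had been matched. The members, lists and tests were chosen with earlier results of these data known. Levels are CPM outside Rn45s without further scaling, and lengths are exon lengths in GENCODE M21, matched for 22708 symbols.

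Tests used edgeR 4.0.16 (quasi-likelihood, TMM factors, filterByExpr with a minimum count of 10 and total of 15, Benjamini-Hochberg over each fit) in R 4.3.3, called at an adjusted p below 0.05. The lines, the sorted cells and each sorted type were fitted separately, so differences follow TMM factors and levels do not. DESeq2 1.42.0, RLE factors, no filter, Rn45s kept, a replicate block and each library left out were alternatives. Both interactions and the fit without T11 tumours were added after values were seen. The fits were tested on simulated data. Python 3.11.15, pandas 2.3.3 and numpy 2.4.6 made the summaries.

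All 9 members are named. Relatives are named, up to 2 a direction and list, by largest passing difference where the mean log2 CPM was 4 or more, and genes of like pattern are the 6 highest r at that level. Replicate pairs had a chi-square per degree of freedom of 1.21 to 10.7 with 0 identical among 48, so none was counted as 1 sample.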

Additional observations from a re-analysis of the deposited data

Results flagged for a closer look

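The difference between 2208L and T11 was compared with that between 4T1 and 67NR by an edgeR interaction term, added after values had been seen. It passed for 9 of 9 genes, where 47.0% of all genes tested passed, and each is given as the first difference minus the second, in log2. Igfbp7 (5.99 ± 0.20, SE), Aqp5 (4.27 ± 0.19) and Col8a1 (3.97 ± 0.14) differed most. For Igfbp7 and Col8a1 the 2 differences had opposite signs, with 2208L above T11 and 4T1 below 67NR. Aqp5 was at 91.04 CPM in 2208L and 139 in T11, but at 8.37 in 4T1 and 192 in 67NR, so its larger difference was the negative one between 4T1 and 67NR. App (2.31), Basp1 (1.85) and Arl6ip1 (1.14) had the larger difference between 2208L and T11. For Cd81 (-2.25), Fabp5 (-1.17) and Sox4 (-0.52) the difference was larger between 4T1 and 67NR. Adjusted p ran from 8.07e-44 (Igfbp7) to 0.0142 (Sox4). Each pair is 1 line against 1 line, so the line and its suffix cannot be told apart.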

How the results depend on the processing

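Of 1321 settings of 82 tests on the 9 genes, 1295 kept the call, 18 lost a call and 8 gained one. No difference changed sign where the main or the alternative test passed. Differences that passed in neither could change sign: that of Aqp5 in E0771 against other macrophages ran from -1.80 to 1.56 log2. All 18 shares of the median recomputed with TMM factors stayed within 1 SD, at 0.685% to 2.58%. The rule was met by 19 genes at a minimum of 100 CPM and by 7 at a threshold of 1%, against 30, and by 34 at a minimum of 10 CPM and 40 at 5%. Leaving out a library moved the number of genes called between E0771 and PyMT-M from 1206 to 683 to 1524, and that between tumours in neutrophils from 5745 to 3757 (without 2208L neutrophil 2) to 7899. For E0771 against other neutrophils the 375 became 86 to 1185 on leaving out a library (86 without E0771 neutrophil 2, 1185 without AT3 neutrophil 1) and 782 against AT3 alone. DESeq2 called 961 genes for the E0771 interaction against 486, and 690 of those were higher against 254; RLE factors gave 384 higher of 526. For E0771 neutrophils DESeq2 gave 184 higher of 318, against 259 of 375. The causes were not tested. Same-numbered libraries were not paired: correlations of their deviations ran from -0.14 to 0.27 among lines. Between macrophages and neutrophils of a tumour they ran from -0.12 to 0.15, and no pair of groups had all 3 over 0.1. Column names of macrophages and neutrophils from the same tumour type carry matching sample numbers. The labels do not say whether such a number marks a shared animal. The replicate block used replicate numbers shared by all tumours, so it did not model that pairing. With a replicate block 1220 genes differed between E0771 and PyMT-M, 14545 between macrophages and neutrophils and 336 between E0771 and other neutrophils, and of the members' calls the block ended that of Arl6ip1 between macrophages alone. Depth limits low values: 1 count is 0.174 to 0.528 CPM in lines and up to 2.12 CPM in sorted cells.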
